A study of Rattus norvegicus with 2 samples.

Results

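Immediate early genes and the feedback inhibitors of MAP kinase signalling were compared between 2 clones of AT6.1, an established rat prostate cancer cell line. The set was named gene by gene and holds 38 genes: AP-1, EGR, KLF and NR4A transcription factors, further early response genes, DUSP, SPRY and SPRED inhibitors, RSK kinases and the kinase ERK1. A gene was taken where an Affymetrix probe set was annotated to that gene alone, which gave 33 of the 38, out of 14217 genes on the array. No probe set in the annotation was named for Btg2, Spred1, Spred2, Rps6ka1 or Mapk3, so these are not analysed here. The set was named with earlier results of these 2 arrays known, so its differences are descriptions and carry no test.

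One array came from clone number 7 of AT6.1, which carries the insert N-myc downstream regulated gene-1 (symbol Ndrg1, Ndrg-1 in the labels) in the expression vector pcDNA3. The other came from clone number 9, transfected with the same vector without an insert. Both were kept in RPMI medium that contained 10% fetal calf serum and 0.3 mg/mL of G418, the drug that selects for the vector. The time from the last change of medium to harvest is not given in the sources used here, nor is the promoter or the species of the insert. Each group was 1 clone and 1 array, so clone, culture, array and insert cannot be told apart, and no p-value or replicate error can be given. In RNA from whole cultures, more responding cells and more RNA per cell cannot be told apart either.

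Growth factors and stress switch on immediate early genes within minutes and without new protein synthesis. The signal runs from Ras through the kinases Raf, MEK and ERK, and ERK activates both ternary complex factors, which work with serum response factor at CArG boxes, and the RSK kinases, which phosphorylate CREB, a factor that binds cyclic AMP response elements (CRE). The same signal induces its own brakes: DUSP enzymes remove the phosphates from MAP kinases, and Sprouty and Spred proteins act upstream, at the level of Ras and Raf. In prostate cancer cells this pathway is a common route of growth factor signalling.

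The deposited values are 1 intensity per probe set and array on a linear scale. A log2 ratio below is that of the Ndrg-1 clone over the vector clone, after a small shift of the vector clone's values that centres the brighter probe sets on 0. Signals under a floor of 31.0, the median of all signals, were set to it, so a gene under the floor in 1 array has a bound in place of a ratio. Where 2 signals are set side by side without a name, the first is that of the Ndrg-1 clone. Where several probe sets read a gene, the brightest on average over both arrays stands for it. A difference was counted from 2-fold on. The only error the table offers is the disagreement between probe sets of 1 gene, with an SD of 0.23 on the log2 scale, which leaves out the variation between clones, cultures and arrays.

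The 2 arrays were alike in their general properties. Their median signals were 31.1 and 31.2, and across all probe sets the log2 signals had a Pearson r of 0.943. The ratio of 3' to 5' signal for Actb was 1.21 in the Ndrg-1 clone and 1.24 in the vector clone. All 18 hybridisation spikes, added after labelling, had lower signals with the Ndrg-1 clone, at a median log2 ratio of -0.54, and 24 of the 27 poly-A spikes, added before labelling, were higher (median 0.20). Scaling to these spikes would move the median gene by 0.54 and -0.20, so every ratio is given relative to the median gene. The Ndrg1 probe sets did not stand out, although the sample title describes the cells as over-expressing Ndrg-1. The sources used here do not say whether they read the inserted sequence, so expression of the insert cannot be judged from them. Ndrg1 had signals of 1353 in the Ndrg-1 clone and 1062 in the vector clone on its brighter probe set (log2 ratio 0.34), and 153.7 and 181.0 on the dimmer (log2 ratio -0.24). The labelled tissue was not visible in epithelial or prostate markers. Of 11 such markers with a probe set, 9 stayed below the floor with either clone (Cdh1, Epcam and Krt18 among them), and Krt8 and Tmprss2 lay close to it, whereas 9 of 11 mesenchymal markers were measured, among them Vim with signals of 4344 and 5798. The mesenchymal markers differed both ways, with a median log2 ratio of -0.19, Col1a1 2.16-fold higher and Col3a1 2.93-fold lower in the Ndrg-1 clone. None of 5 endothelial markers passed the floor in either array. Of 9 leukocyte markers 3 did, and these were Cd68 (log2 ratio 0.85), Cd14 (-0.56) and Csf1r, while Ptprc did not.

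Of the 33 genes, 29 exceeded the floor with 1 or both clones. Fos, Fosb and Rps6ka6 had signals 2-fold or more above those of the vector clone, and Spry4 a signal 2-fold or more below. Among all 9182 genes measured, 1.62% reached 2-fold upwards and 1.5% downwards, beside 3 of 29 (10.3%) and 1 of 29 (3.45%) in the set. The set was chosen with these differences known, and nothing is read from its excess. Counted from 1.5-fold, 3 genes of the set were higher (5.54% of all measured genes) and 2 lower (5.18%), the second being Nr4a1. The other 25 measured genes did not reach 2-fold, and the 4 left were under the floor in both arrays. Egr3 and Nr4a1, among the 25, have bounds, so their differences may be larger than the values given. Over the 29 genes, 18 log2 ratios were above 0 and 11 below, with a median of 0.14 against 0.00 for all genes.

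**Figure D1:**
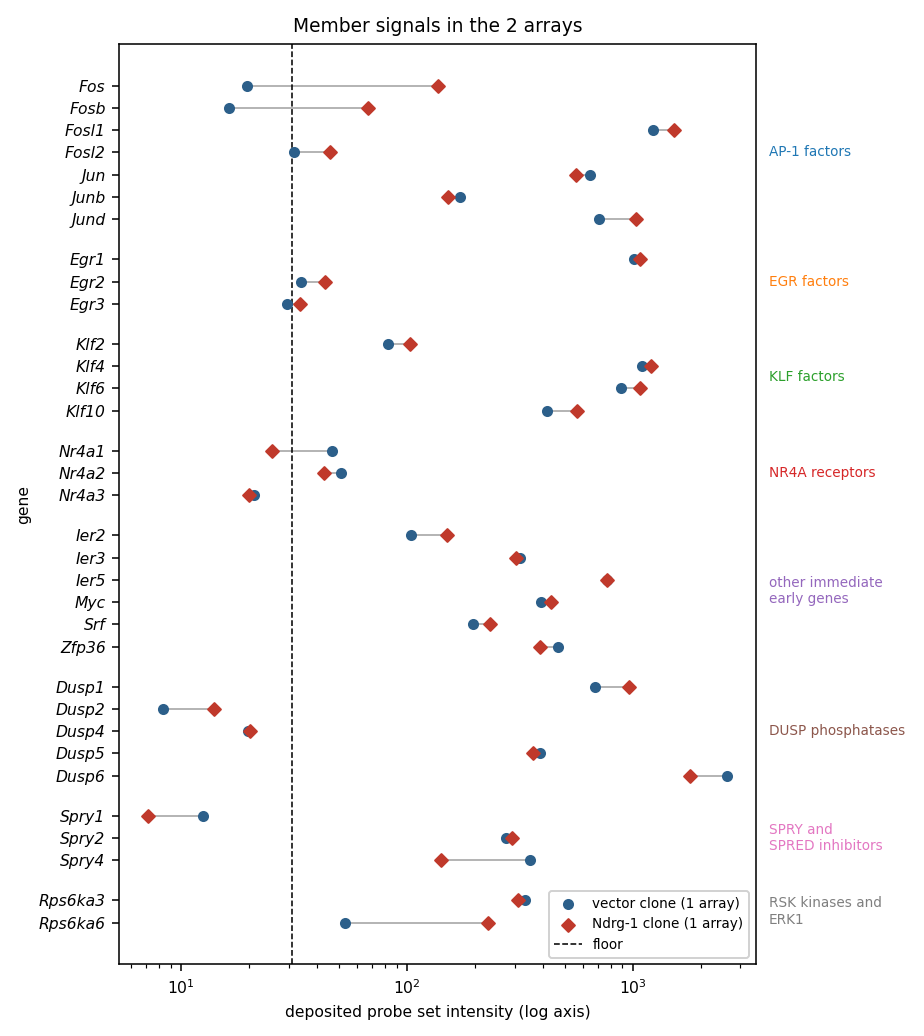
Deposited intensity of each gene's brightest probe set in the vector clone (circles) and the Ndrg-1 clone (diamonds), 1 array each, on a log axis, with genes grouped by role and the floor of 31.0 dashed. Fos and Fosb cross the floor between the arrays, Rps6ka6 and Spry4 show wide gaps above it, and most other pairs lie close together.

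AP-1 is a dimer of a Fos and a Jun family protein, and among the genes of both families Fos and Fosb had the highest values, both of them bounds. Fos, the prototype immediate early gene, read 137.4 in the Ndrg-1 clone against 19.64 in the vector clone. The vector value lies under the floor, so Fos was at least 4.43-fold higher, a ratio that 0.196% of measured genes exceeded. A second Fos probe set had signals of 11.14 and 28.34, under the floor in both arrays and with the higher value in the vector clone, an order that cannot be read at this depth of signal. Fosb, whose product also pairs with Jun proteins, had signals of 67.35 and 16.30. The vector clone was again under the floor, which makes Fosb at least 2.17-fold higher. Both genes rest on 1 readable probe set and lie among the dimmest 25% of measured genes, of which 4.09% were at least 2-fold higher.

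The 2 Fos-related genes with a slower and longer response differed less. Fosl1, which encodes Fra-1, had signals of 1533 and 1230 (log2 ratio 0.31). Fosl2, which encodes Fra-2, had signals of 45.75 and 31.75, just above the floor, with a log2 ratio of 0.52. Jund, at 0.54, had a higher ratio than Fosl1 and Fosl2. Fos and Fosb passed the floor in the Ndrg-1 clone alone, which fixes the direction of their bounds, so a shared direction of the 4 Fos family genes is not read from them.

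The Jun family had no common direction. Jun, the main partner of Fos, had signals of 558.8 in the Ndrg-1 clone and 650.0 in the vector clone (log2 ratio -0.22), while its further probe sets gave -0.42 and -0.31. Junb, an inducible relative that can oppose Jun, had signals of 152.2 and 171.5 (log2 ratio -0.18). Jund, the member expressed most steadily in resting cells, had signals of 1033 and 707.2 (log2 ratio 0.54), with 2 further probe sets under the floor in both arrays. The 3 probe sets of Jun all had the lower signal in the Ndrg-1 clone, while Jund had the higher. Scaled to the hybridisation spikes, Jun and Junb were above 0, at 0.32 and 0.37, as were the other Jun probe sets, at 0.12 and 0.24.

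The EGR zinc finger factors had small ratios. Egr1, a direct target of serum response factor, had signals of 1079 and 1010 (log2 ratio 0.09), and Fos is a target of the same factor. Whether serum response factor has a part in the values of Egr1 or Fos was not tested. Egr2 had signals of 43.16 and 33.86 (log2 ratio 0.35), and its second probe set was under the floor in both arrays. Egr3 was at 33.43 and 29.41, with the vector clone under the floor and a bound of 0.11. Egr1 and Egr3 were just below 0, at -0.11 and -0.02, when the arrays were scaled to the poly-A spikes.

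The KLF zinc finger factors all had log2 ratios above 0 on their brightest probe sets, from 0.14 to 0.43. Klf10, also known as TGF-beta inducible early gene, had signals of 565.1 and 417.2 (log2 ratio 0.43). Klf6, which has been described as a tumour suppressor in prostate, had signals of 1080 and 890.7 (log2 ratio 0.27). Further probe sets read 1230 against 724.9 and 629.5 against 406.4, log2 ratios of 0.76 and 0.63, so the probe set chosen by brightness gave the smallest of 3 differences in the same direction. Klf4 had signals of 1210 and 1098 (log2 ratio 0.14), which turned to -0.06 with scaling to the poly-A spikes. Klf2, a factor best known from endothelium, had signals of 103.7 and 82.86 (log2 ratio 0.32), but its other measured probe set was at -0.34. Taking the median over the probe sets put Klf2 at -0.01.

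The NR4A orphan nuclear receptors were dim. Nr4a1, which encodes Nur77, had signals of 25.16 in the Ndrg-1 clone, under the floor, and 46.50 in the vector clone, so it was at least 1.5-fold lower. Nr4a2 had signals of 42.88 and 51.15 (log2 ratio -0.26), which was 0.28 with scaling to the hybridisation spikes. All 3 probe sets of Nr4a3 were under the floor in both arrays. Nr4a2 was thus the only NR4A gene read with both clones, since the direction of the Nr4a1 bound is fixed by the floor.

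Among the further early response genes, Ier2 had the highest log2 ratio. Its signals were 149.8 and 104.0 (log2 ratio 0.52). Srf, the serum response factor itself, had signals of 232.9 and 196.0 (log2 ratio 0.24), and 0.07 on a second probe set. Myc, a growth-promoting transcription factor, was at 433.6 and 392.3 (log2 ratio 0.14). The remaining 3 were just below 0. Zfp36, an RNA-binding protein that speeds decay of AU-rich messages, had signals of 389.7 and 464.8 (log2 ratio -0.26). Ier3, a survival regulator, was at 304.5 and 317.7 (log2 ratio -0.07). Ier5 was at 771.9 and 772.3 (log2 ratio -0.01), whereas a dim second probe set at 34.84 and 62.61 gave -0.85. Zfp36, Ier3 and Ier5 were above 0 when scaled to the hybridisation spikes, Ier5 also with a lowess trend removed, and Myc was below 0 when scaled to the poly-A spikes.

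The feedback inhibitors differed in both directions. Spry4, a Sprouty protein that restrains Ras and Raf activation by growth factor receptors, had signals of 142.1 in the Ndrg-1 clone and 350.1 in the vector clone. Both values are well above the floor, and the signal was 2.47-fold lower in the Ndrg-1 clone (log2 ratio -1.31), with 0.643% of measured genes below it. Spry4 rests on 1 probe set. Measured genes were cut into 4 classes of 25% each by mean signal. In the class of Spry4, the second dimmest, 1.39% were at least 2-fold lower. Spry2, its close relative, had signals of 292.7 and 275.6 (log2 ratio 0.08), which was below 0 on the poly-A spike scale. Spry1 was under the floor in both arrays, at 7.134 and 12.53.

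Dusp6 and Dusp1 differed in opposite directions on all of their probe sets, relative to the median gene. Dusp6, the cytoplasmic phosphatase that acts on ERK and is itself induced by ERK, had signals of 1791 and 2618 (log2 ratio -0.55). Its other probe sets read 922.5 against 1477 and 299.7 against 406.7, log2 ratios of -0.68 and -0.45. All 3 probe sets of Dusp6 were thus lower in the Ndrg-1 clone, by 1.36-fold to 1.61-fold, and scaling to the hybridisation spikes moved them to -0.01, -0.14 and 0.10. Dusp1, the nuclear phosphatase that prefers the stress kinases p38 and JNK, had signals of 966.4 and 680.1 (log2 ratio 0.50). Its second probe set, at 252.1 and 163.2, gave 0.62. Dusp5, a nuclear phosphatase for ERK, was at 362.6 and 389.9 (log2 ratio -0.11), which was above 0 on the hybridisation spike scale. Dusp2 and Dusp4 were under the floor in both arrays.

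Of the kinases that ERK activates, Rps6ka6 differed and Rps6ka3 did not reach 2-fold. Rps6ka6, which encodes RSK4, an RSK isoform that has been described as a growth inhibitor, had signals of 229.0 in the Ndrg-1 clone and 53.01 in the vector clone. Both values lie above the floor, and the signal was 4.31-fold higher in the Ndrg-1 clone (log2 ratio 2.11), with 0.207% of measured genes above it. In its class by signal, the same as that of Spry4, 1.57% of genes were at least 2-fold higher. The value rests on 1 probe set, and when the floor was raised to the 75th percentile of signals the ratio shrank to 0.42, because the vector value then lies under the floor. Rps6ka3, which encodes RSK2, had signals of 309.2 and 333.5 (log2 ratio -0.11), and a second probe set was at 0.01, both above 0 on the hybridisation spike scale.

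**Figure D2:**
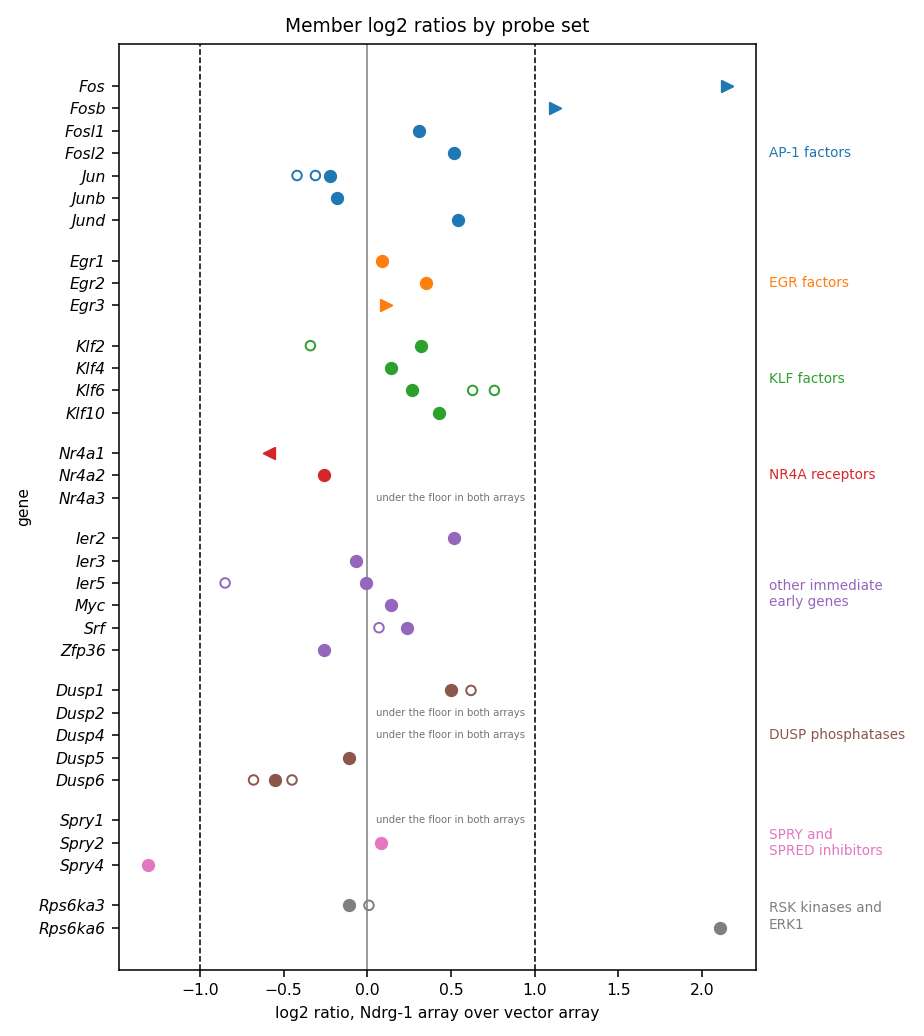
Log2 ratio of the Ndrg-1 clone over the vector clone for each measured probe set of the 33 genes, with filled symbols for the brightest probe set, open circles for others, and triangles where 1 array was under the floor and the ratio is a bound. Dashed lines mark 2-fold. Fos, Fosb and Rps6ka6 lie to the right of them and Spry4 to the left, and the 3 probe sets of Dusp6 lie together below 0.

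Taken by role, the measured transcription factors had a higher median than the measured inhibitors. The 16 measured AP-1, EGR, KLF and NR4A genes had a median log2 ratio of 0.29, with 12 above 0 and 4 below. The 5 measured DUSP and SPRY genes had a median of -0.11, with 2 above 0 and 3 below. The medians differed by 0.40 (0.31 to 0.45 in the alternatives), and the ranges overlapped widely, from -0.59 to 2.15 for the factors and from -1.31 to 0.50 for the inhibitors. Dusp1 had a higher ratio than 12 of the 16 factors. For Fos, Fosb, Egr3 and Nr4a1 the side of 0 is fixed by the floor, so these counts and medians describe the genes that passed it and support nothing further. The factor group was itself uneven, with medians of 0.52 for the 7 AP-1 genes, 0.30 for the 4 KLF genes, 0.11 for the 3 EGR genes and -0.42 for the 2 NR4A genes. The 2 measured RSK genes of the set had a median of 1.0, which is only the midpoint of Rps6ka6 and Rps6ka3.

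**Figure D3:**
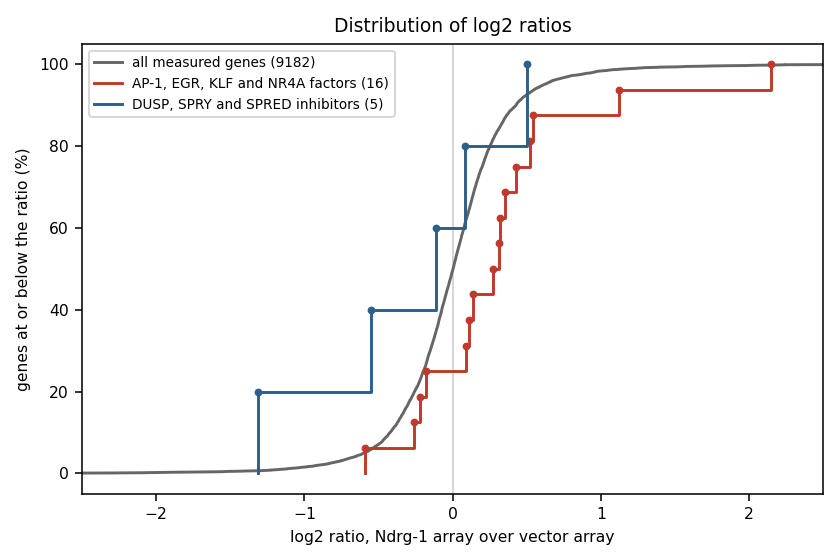
Cumulative distribution of log2 ratios for all 9182 measured genes (grey), the 16 factors (red) and the 5 inhibitors (blue), with the percent of genes at or below each ratio on the vertical axis and 1 point per gene. The red steps lie to the right of the grey curve over most of their range, the blue steps to its left except at the top, where Dusp1 stands at 0.50.

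Ratios smaller than 2-fold were set against the disagreement between probe sets. Of the 29 measured genes, 10 had a ratio or bound beyond 2 SD, that is 0.46 on the log2 scale, as did 16.9% of all measured genes. Higher in the Ndrg-1 clone were Fos, Fosb, Fosl2, Jund, Ier2, Dusp1 and Rps6ka6, and lower were Nr4a1, Dusp6 and Spry4. Of these 10, Dusp1 and Dusp6 had more than 1 measured probe set, and all of them were on the same side of 0. Of the 8 genes with several measured probe sets, 6 had all of them on 1 side of 0. The exceptions were Klf2 and Rps6ka3.

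The promoters show which of these genes carry the elements that the pathway is known to use. RefSeq windows of 250 bases upstream of an annotated transcript start (assembly GRCr8) were available for 28 of the 38 genes. No window was available for Fos, Jun, Egr3, Klf2, Klf10, Nr4a3, Ier3, Myc, Dusp4 or Mapk3, so these were not searched. The 28 windows were searched on both strands for the CRE (TGACGTCA), the CArG box, the AP-1 site (TGANTCA) and the EGR site (GCGNGGGCG), and these motifs do not contain each other. A full CRE was found in 4 of the 28 windows, those of Jund, Ier2, Dusp1 and Btg2, against 1.59% of all 33469 windows of the same length. A CArG box was found in 6, those of Egr1, Egr2, Klf6, Srf, Zfp36 and Dusp5, against 1.5% of all windows. An EGR site was found in 10 of the 28 (4.29% of all windows), and an AP-1 site in 0 of the 28 (6.34% of all windows). All windows include those of genes not measured here. Of 7794 measured genes with a window, 250 had a CRE, 96 a CArG box, 678 an EGR site and 338 an AP-1 site. The CRE and the EGR site were thus more frequent, and the AP-1 site less, than in all windows. A match is a run of letters and not a measured binding site, and no match says only that the letters are not in this window.

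The 3 measured genes with a CRE had log2 ratios of 0.54 for Jund, 0.52 for Ier2 and 0.50 for Dusp1. The second Dusp1 probe set gave 0.62, and Jund and Ier2 each rest on 1 measured probe set. The closeness was noticed after the values were seen, lies within the probe set SD of 0.23 and was not tested. The windows of these genes are shown 5' to 3' on the strand of the gene, with the CRE in capitals. The Jund window is chr16:18769772-18770021, minus strand, the Ier2 window chr19:40399123-40399372, plus strand, and the Dusp1 window chr10:17184603-17184852, plus strand.
Jund: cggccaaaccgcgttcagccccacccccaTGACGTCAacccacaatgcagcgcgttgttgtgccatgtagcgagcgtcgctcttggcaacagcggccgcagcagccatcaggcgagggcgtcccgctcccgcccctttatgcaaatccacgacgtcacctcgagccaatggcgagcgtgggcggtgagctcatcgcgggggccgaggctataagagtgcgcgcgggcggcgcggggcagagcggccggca
Ier2: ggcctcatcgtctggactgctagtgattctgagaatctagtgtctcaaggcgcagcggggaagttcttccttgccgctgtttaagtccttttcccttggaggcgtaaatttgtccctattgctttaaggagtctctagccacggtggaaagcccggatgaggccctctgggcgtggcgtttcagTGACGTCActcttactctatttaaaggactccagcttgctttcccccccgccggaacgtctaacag
Dusp1: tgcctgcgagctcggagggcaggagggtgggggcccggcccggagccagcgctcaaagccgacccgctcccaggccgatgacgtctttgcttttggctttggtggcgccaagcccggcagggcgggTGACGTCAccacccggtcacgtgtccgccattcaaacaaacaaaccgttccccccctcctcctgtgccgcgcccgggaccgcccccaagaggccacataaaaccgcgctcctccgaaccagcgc
The element starts 221 bases before the annotated start in Jund, 66 bases before it in Ier2 and 124 bases before it in Dusp1. Across all measured genes, the 250 with a CRE had a median log2 ratio of 0.03, with quartiles at -0.16 and 0.21. Of these, 2 were at least 2-fold higher and 0 lower, beside 125 and 106 of all 7794 measured genes with a window. Whether the CRE has a part in any of these ratios was not tested.

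On their brightest probe sets, the 6 genes found with a CArG box had log2 ratios from -0.26 for Zfp36 to 0.35 for Egr2, and none reached 2-fold. The further measured probe sets of Klf6 were at 0.76 and 0.63, and that of Srf at 0.07. Fos, the gene with the highest value of the set, had no window and was not searched. The windows of Egr1 and Dusp5 are shown because each holds 2 boxes, in capitals, while their ratios were 0.09 and -0.11. The Egr1 window is chr18:26736828-26737077, plus strand, and the Dusp5 window chr1:262543524-262543773, plus strand. The window of Spry4, the gene with the lowest ratio of the set, is chr18:30702547-30702796, minus strand. It is shown for contrast and holds none of the 4 motifs.
Egr1: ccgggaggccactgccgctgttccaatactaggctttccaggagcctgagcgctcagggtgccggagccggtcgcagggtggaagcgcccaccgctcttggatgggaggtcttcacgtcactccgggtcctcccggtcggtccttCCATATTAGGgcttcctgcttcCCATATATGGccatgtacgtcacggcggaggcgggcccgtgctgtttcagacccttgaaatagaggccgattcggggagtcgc
Dusp5: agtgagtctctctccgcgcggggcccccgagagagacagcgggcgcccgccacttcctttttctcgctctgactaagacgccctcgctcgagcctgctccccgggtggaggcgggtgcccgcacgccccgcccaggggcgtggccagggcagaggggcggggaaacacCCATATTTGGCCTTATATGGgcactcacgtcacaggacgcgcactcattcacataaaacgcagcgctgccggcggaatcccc
Spry4: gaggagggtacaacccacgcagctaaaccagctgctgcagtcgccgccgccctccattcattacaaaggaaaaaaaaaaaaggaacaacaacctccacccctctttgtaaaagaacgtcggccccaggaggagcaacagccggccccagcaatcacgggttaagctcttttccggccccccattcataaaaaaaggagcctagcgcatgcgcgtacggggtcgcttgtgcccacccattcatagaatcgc
The boxes start 105 and 83 bases before the annotated start in Egr1, and 82 and 72 bases before it in Dusp5, where they follow each other directly. Windows for Fosb and Rps6ka6 held none of the 4 motifs either. The start site of a window lies inside the annotated gene for Nr4a1 (12985 bases), Nr4a2 (11039), Egr2 (760), Klf4 (590), Spry1 (352), Rps6ka3 (333), Fosb (322), Dusp6 (102) and Srf (26), so the CArG match of Egr2 and the EGR match of Nr4a1 are not upstream of the gene's first start. The 6 windows shown all end at the annotated start of their gene.

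Other genes of the pathway were read from lists that do not overlap the 38 genes. Beside 1.62% of all measured genes higher and 1.5% lower, the counts of 0 or 1 in these short lists are not read as a difference from other genes. Of 31 measured further immediate early genes, 1 reached 2-fold upwards and 0 downwards, with a median log2 ratio of 0.12. The 1 was Atf3, a stress-induced factor that dimerises with Jun proteins, at 74.82 against 23.39, with the vector clone under the floor and a bound of 2.41-fold. Of 25 measured genes of the ERK cascade, 0 reached 2-fold in either direction, and their median was 0.01. Rap1gap, which inactivates the GTPase Rap1, was the highest at 0.41, and Rps6ka2, the RSK3 gene, the lowest at -0.36, both close to the floor. The kinase genes Map2k1 and Map2k2, which encode MEK1 and MEK2 and were chosen after their values were seen, were at 0.06 and -0.21.

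Of 20 measured further phosphatases and ERK outputs, 0 reached 2-fold, with 8 above 0, 12 below and a median of -0.09. Mmp3, a matrix metalloprotease, was the highest with a bound of 0.72, its vector signal of 18.21 being under the floor. Spsb1, an adaptor of ubiquitin ligases, was the lowest at -0.66, and its further probe sets were at -0.89 and -0.59. The ETS factor genes Etv1, Etv4 and Etv5, which are read as outputs of ERK, were chosen after their values were seen. Etv4 and Etv5 were at -0.08 and -0.15, and Etv1 at -0.60, with further probe sets from -0.90 to -0.24. All lie among the 12 genes of the list below 0. The 8 above 0 included Dusp7 at 0.67 and Hbegf at 0.46, so no common direction of ERK outputs is read from the ETS genes.

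Of 12 measured genes of the stress kinase pathways p38 and JNK, 1 was at least 2-fold higher and 0 lower, with 10 above 0 and a median of 0.14. The 1 was Mapk12, which encodes p38 gamma, at 129.8 against 45.21 (2.86-fold). Of 10 measured ATF and CREB partners, 0 reached 2-fold, 8 were above 0 and the median was 0.13. Within this list Ddit3, which encodes the stress factor CHOP, was the highest at 960.4 against 491.6 (log2 ratio 0.96), and Creb1 the lowest at -0.22. Atf2 and Atf3 were counted in other lists and had higher values than Ddit3. Atf2, in the stress kinase list, was at 120.5 against 60.42 (log2 ratio 0.99), and Atf3 had a bound of 1.27. The list medians compare with 0.00 for all measured genes.

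**Figure D4:**
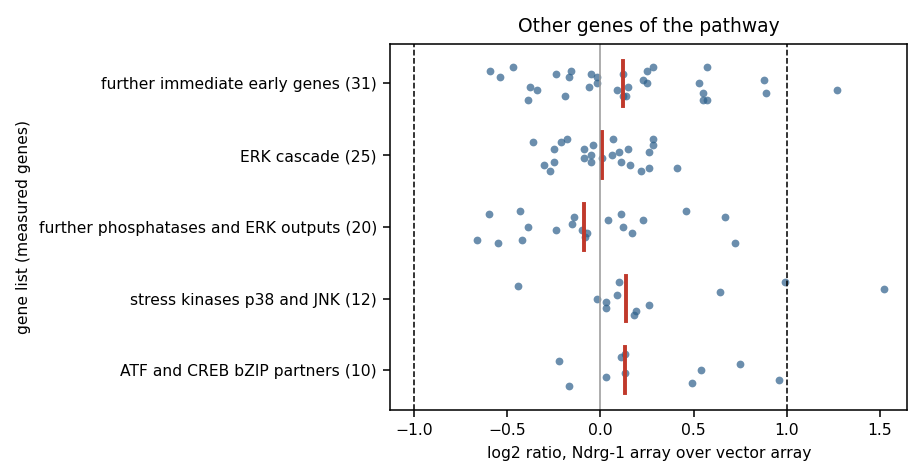
Log2 ratio of each measured gene (points) and list median (red bars) for 5 further lists of the pathway, with dashed lines at 2-fold. The ERK cascade is the narrowest list, from -0.36 to 0.41, and only Atf3 and Mapk12 lie beyond 2-fold.

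**Figure D5:**
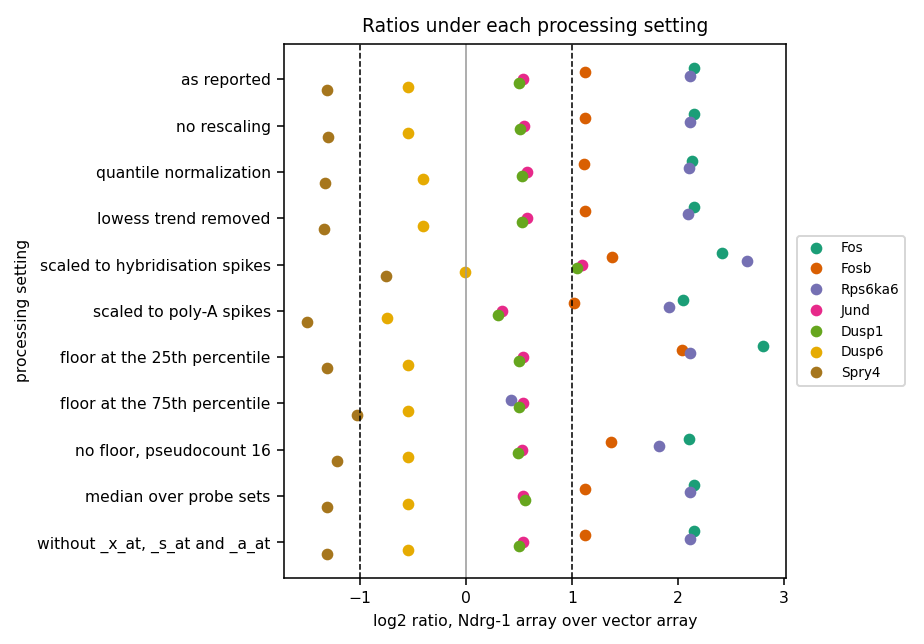
Log2 ratios of 7 genes under the reported processing and under each alternative, with dashed lines at 2-fold. Scaling to the hybridisation spikes moves every gene to the right, and the floor at the 75th percentile shrinks Rps6ka6 to 0.42 and leaves Fos and Fosb out.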

How the data were processed

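Gene expression was measured on Affymetrix rat arrays, 1 per clone. The deposited values are 1 intensity per probe set and array, made by the authors with GCOS 1.3, per the submitters' processing notes. Both arrays had a mean of 150.0 without the outer 2% of values, so they had been scaled before deposit. The sources used here do not give the probe set summary, the scaling setting or detection calls. The number of arrays limits the precision.

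Of 31099 probe sets, 57 controls were set apart. Of the rest, 20826 had 1 gene symbol in the platform annotation, 436 several and 9780 none, and 20758 matched a RefSeq gene ID (GRCr8). The vector clone was shifted by 0.0048 on the log2 scale, and the floor, ratios and counts were computed as described with the results. The members, lists and settings were chosen with earlier results of these data known. Named genes were all members, and per further list up to 4 genes per direction past 2-fold, or the highest and lowest where none was. Cell type markers, MEK and ETS genes, Dusp7, Hbegf, Atf2 and genes named for a promoter motif fall outside this rule and were chosen after their values were seen. No test fits 1 array per group. The procedure was run on simulated data with the probe set SD as the only noise. Changes were planted only in genes above the floor in both arrays, so bounds and variation between clones, cultures and arrays were not covered. Alternatives covered scaling, floor, pseudocount, probe set choice and fold. Python 3.11.15, numpy 2.4.6, pandas 2.3.3, statsmodels 0.14.6 and matplotlib 3.10.9 were used.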

Additional observations from a re-analysis of the deposited data

How the results depend on the processing

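10 alternatives were run for each value and an 11th, counting from 1.5-fold, for the counts. Fos, Fosb and Rps6ka6 as the genes at least 2-fold higher, and Spry4 as the gene at least 2-fold lower, were the same genes without rescaling, with quantile normalization, a lowess trend removed, scaling to the poly-A spikes, the floor at the 25th percentile, a pseudocount of 16 in place of the floor, the median over probe sets, and without shared-transcript probe sets. With the hybridisation spikes as the scale, 6 members were higher (Jund, Ier2 and Dusp1 added) and 0 lower. In this setting the factor median was 0.78, the inhibitor median 0.43 and the RSK median 1.54, and Fos was at 2.41, Rps6ka6 at 2.65 and Spry4 at -0.76. In the same setting the median of all genes was 0.53, 732 genes were higher and 43 lower, and 7 further immediate early genes and 3 each of the stress kinase list and the ATF and CREB list were higher. The poly-A scale gave 102 and 232. A floor at the 75th percentile left 20 members measured, and 0 were higher, the RSK median was 0.15, Rps6ka6 was at 0.42 and Spry4 at -1.03, and Fos gave no value. A floor at the 25th percentile left all 33 measured, Fos was at 2.80, and 444 of all genes were higher and 463 lower. With the pseudocount, Rps6ka6 was at 1.82. At 1.5-fold, 2 members were lower (Spry4 and Nr4a1), and 509 of all genes were higher and 476 lower. Egr2 had no value without shared-transcript probe sets. No called value changed sign. No paired analysis was possible because each group has 1 array. Dim signal limits 8 members most, 4 under the floor in both arrays and 4 with 1 array under it.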

Other observations

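Beyond the members, measured genes with a CArG box in the 250 bases upstream of the annotated start were counted, a choice made after the members' windows were seen. Of 96 such genes, 8 had a signal 2-fold or more above the vector clone and 1 a signal 2-fold or more below it, beside 125 and 106 of all 7794 measured genes with a window. The median of the 96 was 0.03, close to that of all genes. The higher ones were Hps1 (156.2 against 43.39, 3.59-fold), Zbtb38 (488.4 against 217.5, 2.24-fold), Ppif, the mitochondrial cyclophilin (201.8 against 94.29, 2.13-fold), and Rhoj (86.01 against 41.10, 2.09-fold). For Tfcp2l1, Svil, which encodes the actin-binding protein supervillin, Ube2e2 and Bpifb1 the vector clone was under the floor, with bounds of 3.37-fold, 3.29-fold, 2.63-fold and 2.29-fold. The lower one was Hist2h2be at 55.40 against 124.6. Genes with an AP-1 site in the window, 338 in all, had 13 higher and 6 lower, with a median of 0.02, among them the myosin kinase gene Mylk and the thrombin receptor gene F2r, with bounds of 7.41-fold and 5.54-fold. Genes with an EGR site, 678 in all and the largest of the 4 sets, had 8 higher and 7 lower, with a median of 0.01, and the 250 with a CRE had 2 higher and 0 lower. These counts were not tested.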
